A study of Mus musculus with 6 samples.

Results

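Forkhead transcription factor genes described in vessels were followed in mouse endothelial cells grown in culture. They were picked by gene symbol as Foxo1, Foxo3, Foxo4, Foxc1, Foxc2, Foxf1, Foxp1, Foxp4, Foxj2 and Foxk1, and all 10 were found among the 54532 genes of the count table. The RBPMS cells had received lentivirus for overexpression of RBPMS for 72 h (3 libraries, RBPMS replicates 1 to 3). The control cells had received lentivirus with an empty vector for the same time (3 libraries, control replicates 1 to 3). Both groups therefore carried lentivirus and grew in the same complete endothelial medium with serum. RBPMS is an RNA-binding protein with a known role in splicing, and the series title names heart failure in aging. The vascular bed, the strain and whether replicates were separate cultures are not given in the labels, and the spread that the p-values rest on may be a technical one.

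Forkhead proteins are transcription factors that bind DNA through a conserved winged-helix domain. The FOXO factors sit below insulin and growth factor signalling: AKT phosphorylates them, 14-3-3 proteins hold them in the cytoplasm, and in the nucleus they favour cell cycle arrest and stress resistance. In endothelium FOXO1 is known as a brake on growth and metabolism, FOXC1 and FOXC2 act in arterial and lymphatic development, and FOXF1 is needed for lung vessels. FOXP1 and FOXP4 are mostly repressors, and FOXK1 represses autophagy genes and promotes glycolysis. Much of this regulation acts on the proteins, which were not measured here.

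Library totals ran from 18199702 to 21492957 counts with RBPMS and from 15779567 to 23076124 counts in controls, and 28258 genes had no count. Control replicate 3 stood apart: across genes its log2 CPM (counts scaled to the library total) correlated at 0.954 to 0.960 with the other libraries, against 0.991 to 0.995 among those 5. The comparison is therefore given with all 6 libraries and without control replicate 3. Rbpms itself had 131, 148 and 133 CPM in RBPMS replicates 1 to 3, against 57.1, 56.8 and 55.2 CPM in control replicates 1 to 3. Marker sums are in CPM of the library total, without that scaling. Endothelial markers were abundant in every library, with a summed level of 10 genes of 17152 to 18095 CPM with RBPMS and 14778 to 20060 CPM in controls, the lowest in control replicate 3. Summed markers of smooth muscle and pericytes (7 genes, Rgs5 at 0) reached at most 1.48 CPM in either group, and those of fibroblasts (7 genes) 5.48 to 6.04 CPM with RBPMS and 4.85 to 7.79 CPM in controls. Leukocyte markers (6 genes, Adgre1 and Cd3e at 0) summed to 53.3 to 58.5 CPM with RBPMS and 41.1 to 46.5 CPM in controls, nearly all of it Cd68, the 1 marker of that list with enough counts to be tested. Epithelial and mesothelial markers (6 genes, with Epcam, Krt18 and Cdh1 at 0) summed to 15.99 to 20.05 CPM with RBPMS and 20.15 to 24.8 CPM in controls. Neither the leukocyte nor the epithelial ranges overlapped between groups. Such separation was common, as single genes in scaled CPM showed it for 24.7% of 13898 tested. Cardiomyocyte markers (5 genes, Actn2 at 0) summed to 1.76 to 2.42 CPM with RBPMS and 0.824 to 3.64 CPM in controls. The part of these marker differences in the results was not tested. In such bulk RNA, fewer cells that express a gene and less of its RNA per cell cannot be told apart.

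None of the 10 forkhead genes passed the edgeR quasi-likelihood test at an adjusted p of 0.05, either with all 6 libraries or without control replicate 3. Nor did any with DESeq2 or limma-voom. Over all 6 libraries 0 of 13898 genes passed in edgeR (0%), 56 in DESeq2 and 0 in limma-voom, with 1050 genes at an unadjusted edgeR p under 0.05 (7.56%) and 0 of the 10 members among them. In the 5 other libraries 1022 of 14123 genes passed (7.24%), of which 538 had risen (3.81%) and 484 had fallen (3.43%), so a count of 0 among 10 members is near the background. At an unadjusted p under 0.05 stood 1 member, Foxk1, where 20.9% of all tested genes did. The median log2 fold change of the members was -0.030 without control replicate 3, against -0.0025 over all genes tested, and 4 of the 10 were positive. In the 6-library fit the median was 0.12, against -0.0083 over all genes tested.

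The intervals describe the precision of the fold changes, given the spread between libraries. Each is for a single gene, so together they are not a joint bound on the 10 members. Without control replicate 3 the log2 fold changes of the 10 members lay between -0.15 (Foxc2) and 0.12 (Foxk1), with standard errors of 0.046 to 0.089. Their 95% confidence intervals reached no lower than a fold of 0.793 and no higher than 1.17. In the 6-library fit the log2 fold changes lay between -0.13 and 0.48 and the intervals ran from a fold of 0.748 to 2.58. An adjusted p above the threshold does not show that the levels were equal.

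**Figure D1:**
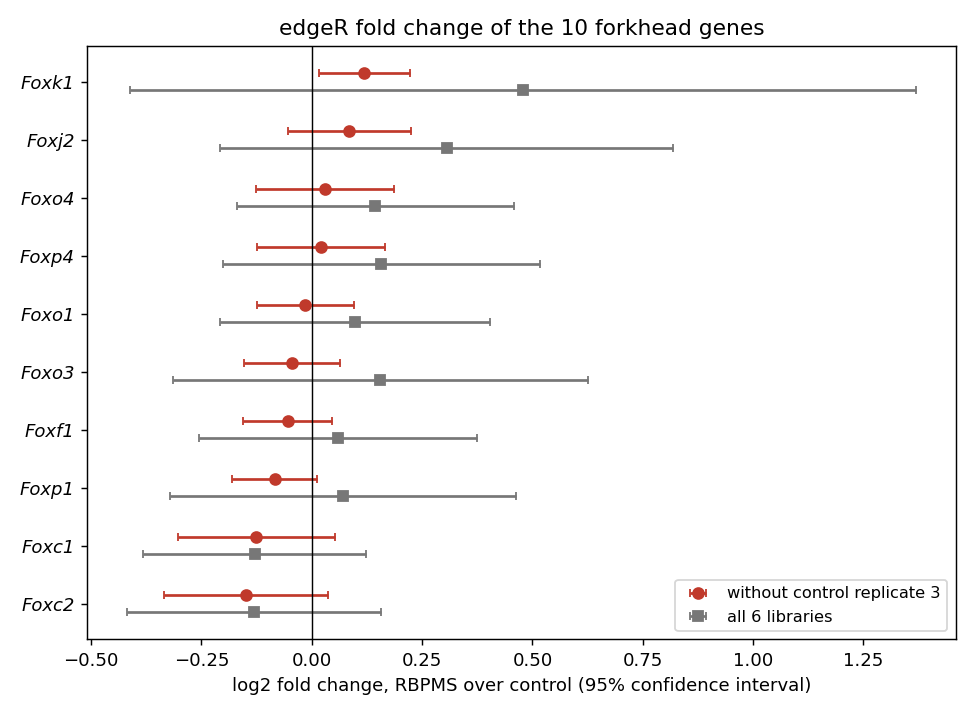
Log2 fold change of each forkhead gene, RBPMS over control, with its 95% confidence interval (edgeR quasi-likelihood). Circles are from the 5 libraries without control replicate 3 and squares from all 6. The circles lie between -0.15 and 0.12, and the interval of Foxk1 alone among the 5-library ones leaves out 0.

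The plot of normalised levels by library shows the 10 genes one by one. Levels of one gene across libraries are in CPM scaled by trimmed mean of M values (TMM), and counts per member ran from 398 to 7754 in a library.

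**Figure D2:**
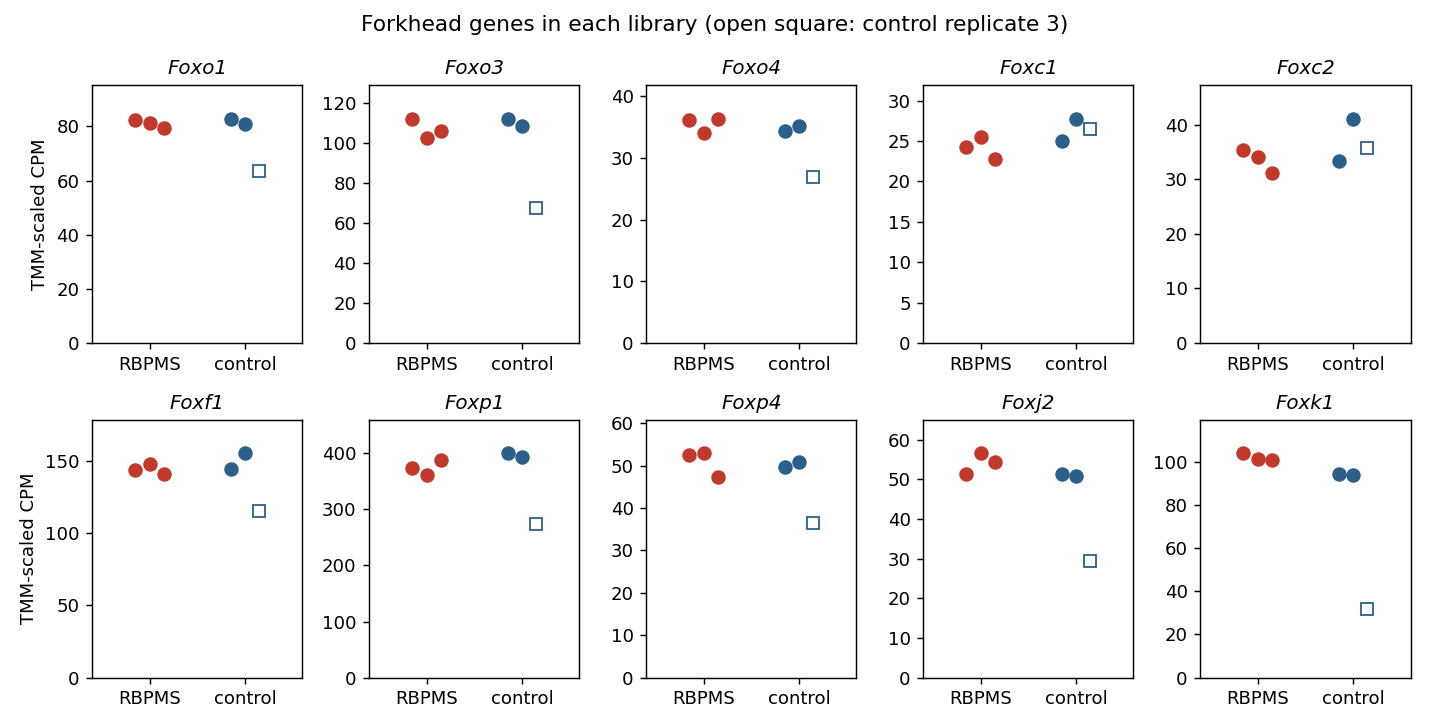
TMM-scaled CPM of each forkhead gene in every library, RBPMS at the left and control at the right of each panel, each panel on its own scale from 0. The open square is control replicate 3, which lies below all other libraries for 8 of the 10 genes and within the range of the others for Foxc1 and Foxc2.

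Among the FOXO genes the RBPMS libraries and control replicates 1 and 2 covered the same levels. Foxo1 (ENSMUSG00000044167, chr3:52268336-52353221, plus strand, GRCm38) had 82.4, 81.1 and 79.5 CPM with RBPMS, against 82.9, 81.0 and 63.4 CPM in control replicates 1 to 3. The groups overlapped, and the low value was control replicate 3. Without that library the log2 fold change was -0.015 ± 0.053 (SE), with a 95% interval of -0.12 to 0.095 (adjusted p = 0.919, edgeR), and 0.098 ± 0.13 with all 6 (adjusted p = 0.711). Foxo3 (ENSMUSG00000048756, chr10:42181841-42276755, minus strand), which is known to act beside FOXO1 in vascular growth control, had 112, 102 and 106 CPM with RBPMS, against 112, 108 and 67.2 CPM in controls. Again only control replicate 3 lay apart. The log2 fold change of Foxo3 was -0.045 ± 0.052 without control replicate 3 and 0.16 ± 0.20 with it. Foxo4 (ENSMUSG00000042903, chrX:101254528-101260873, plus strand) had 36.2, 34.1 and 36.4 CPM with RBPMS, against 34.4, 35.2 and 26.9 CPM in controls, and the groups overlapped (log2 fold change 0.030 ± 0.075 in the 5 libraries).

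Scaled to gene length as TPM, which divides counts by gene length and scales each library to 1 total, the share of each gene in the FOXO total was close in both groups apart from control replicate 3. Foxo3 made up 41.9% ± 0.70 of their summed TPM with RBPMS (SD, n = 3), against 43.2%, 42.4% and 37.1% in control replicates 1 to 3. Foxo1 held 27.8% ± 0.76 with RBPMS and 28.7% ± 1.62 in controls (SD, n = 3 each), and Foxo4 held 30.3% ± 0.66 with RBPMS and 30.4% ± 1.75 in controls. The paralog Foxo6 averaged 2.30 TPM over the 6 libraries.

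The FOXC genes had the lowest fold changes of the 10, with groups that overlapped. Foxc1 (ENSMUSG00000050295, chr13:31806633-31812476, plus strand) had 24.2, 25.5 and 22.7 CPM with RBPMS, against 25.02, 27.8 and 26.5 CPM in controls. RBPMS replicate 2 lay above control replicate 1 for this gene. The fitted log2 difference was -0.13 ± 0.085 without control replicate 3 (adjusted p = 0.446, edgeR) and -0.13 ± 0.11 with all 6 libraries. Foxc2 (ENSMUSG00000046714, chr8:121116171-121118895, plus strand), a factor of lymphatic valve formation, had 35.3, 34.0 and 31.1 CPM with RBPMS, against 33.3, 41.1 and 35.7 CPM in controls. Control replicate 2 was the highest library and control replicate 1 lay inside the RBPMS range. The log2 fold change of Foxc2 was -0.15 ± 0.089 without control replicate 3, with a 95% interval of -0.33 to 0.036 (adjusted p = 0.369, edgeR), and without control replicate 2 as well it was 0.013. Foxc2 took 74.8% ± 0.84 of the summed FOXC TPM with RBPMS and 74.8% ± 1.09 in controls (SD, n = 3 each).

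Foxf1 (ENSMUSG00000042812, chr8:121084386-121088144, plus strand) lies in the same gene cluster as Foxc2, with 28026 bases between them. Foxf1 had 143, 148 and 141 CPM with RBPMS, against 145, 155 and 115 CPM in controls. The groups overlapped, with control replicate 3 lowest. On the log2 scale the change was -0.055 ± 0.048 without control replicate 3 (adjusted p = 0.582, edgeR) and 0.059 ± 0.13 with all 6 libraries. The long noncoding RNA gene Fendrr, which lies on the opposite strand with 1275 bases between the genes, had 699, 639 and 603 raw counts with RBPMS and 551, 537 and 575 in controls. Raw counts are not scaled, and the library totals were larger with RBPMS than in control replicates 1 and 2, and largest in control replicate 3. On scaled counts its log2 difference was -0.068 ± 0.081 in the 5 libraries. The third forkhead gene of the cluster, Foxl1, had at most 1 count in any library, and Foxf2 and Foxq1, which lie near Foxc1, were at 0 in all 6.

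Of the FOXP pair, Foxp1 (ENSMUSG00000030067, chr6:98925338-99522721, minus strand) had the most counts of all members. It had 373, 361 and 388 CPM with RBPMS, against 400, 393 and 274 CPM in controls. All 3 RBPMS libraries lay below control replicates 1 and 2 and above control replicate 3. The log2 fold change was -0.084 ± 0.046 without control replicate 3 (95% interval -0.18 to 0.013, adjusted p = 0.322, edgeR) and 0.071 ± 0.17 with all 6 libraries. Foxp4 (ENSMUSG00000023991, chr17:47867133-47924645, minus strand) had 52.4, 52.9 and 47.4 CPM with RBPMS, against 49.7, 50.8 and 36.4 CPM in controls, and the groups overlapped (log2 fold change 0.020 ± 0.069 in the 5 libraries). Foxp1 held 72.5% ± 1.89 of the summed TPM of the pair with RBPMS and 73.6% ± 0.65 in controls (SD, n = 3 each). Foxp2 had at most 1 count in any library.

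Foxk1 and Foxj2 were the members whose 3 RBPMS libraries lay above all 3 controls. Foxk1 (ENSMUSG00000056493, chr5:142401497-142462011, plus strand) had 104, 101 and 101 CPM with RBPMS, against 94.3, 93.7 and 31.8 CPM in control replicates 1 to 3. The RBPMS libraries and the first pair of controls each lay close together, and control replicate 3 was far lower. Its log2 fold change was 0.12 ± 0.049 in the 5 libraries without control replicate 3, a fold of 1.09 with a 95% interval of 1.01 to 1.17 (unadjusted p = 0.0252, adjusted p = 0.160, edgeR quasi-likelihood). Over all 6 libraries it was 0.48 ± 0.38 (adjusted p = 0.604). Foxj2 (ENSMUSG00000003154, chr6:122819914-122845366, plus strand), a broadly expressed activator, had 51.39, 56.5 and 54.3 CPM with RBPMS, against 51.36, 50.7 and 29.3 CPM in controls. The gap between RBPMS replicate 1 and control replicate 1 was thus a few hundredths of a CPM. The log2 fold change of Foxj2 was 0.085 ± 0.067 without control replicate 3 and 0.31 ± 0.22 with all 6 libraries. Such separation of the groups was common, at 24.7% of 13898 genes over all 6 libraries (12.2% with RBPMS higher, 12.5% with RBPMS lower), where 2 of the 10 members showed it. Without control replicate 3 it held for 37.4% of 14123 genes (18.3% with RBPMS higher, 19% with RBPMS lower) and for 3 members, Foxk1 and Foxj2 with higher values and Foxp1 with lower values with RBPMS.

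Control replicate 3 was the lowest of the 6 libraries in CPM for 8 of the 10 members. Its log2 level minus the mean of control replicates 1 and 2 had a median of -0.42 among the 10 genes and of 0.0056 among all genes tested. The difference was -1.55 for Foxk1, -0.79 for Foxj2, -0.71 for Foxo3 and -0.53 for Foxp1, and -0.050 for Foxc2 and 0.0063 for Foxc1. Across all tested genes this difference moved with gene length: its median was 0.52 in the shortest 20% of genes and -0.52 in the longest 20% (7049 bases or more), which held Foxp1, Foxo3, Foxk1 and Foxo1. Within that longest group of 2780 genes 118 lay lower than Foxk1, and 80% of the genes lay between -1.24 and 0.19. Foxf1, with 2415 bases, had a difference of -0.38 while the median of its length group was 0.30. With a trend on length removed from each library, the log2 fold change over all 6 libraries was -0.19 for Foxp1 and -0.060 for Foxo1. Without that step it was 0.071 for Foxp1 and 0.098 for Foxo1. What made this library differ was not tested.

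**Figure D3:**
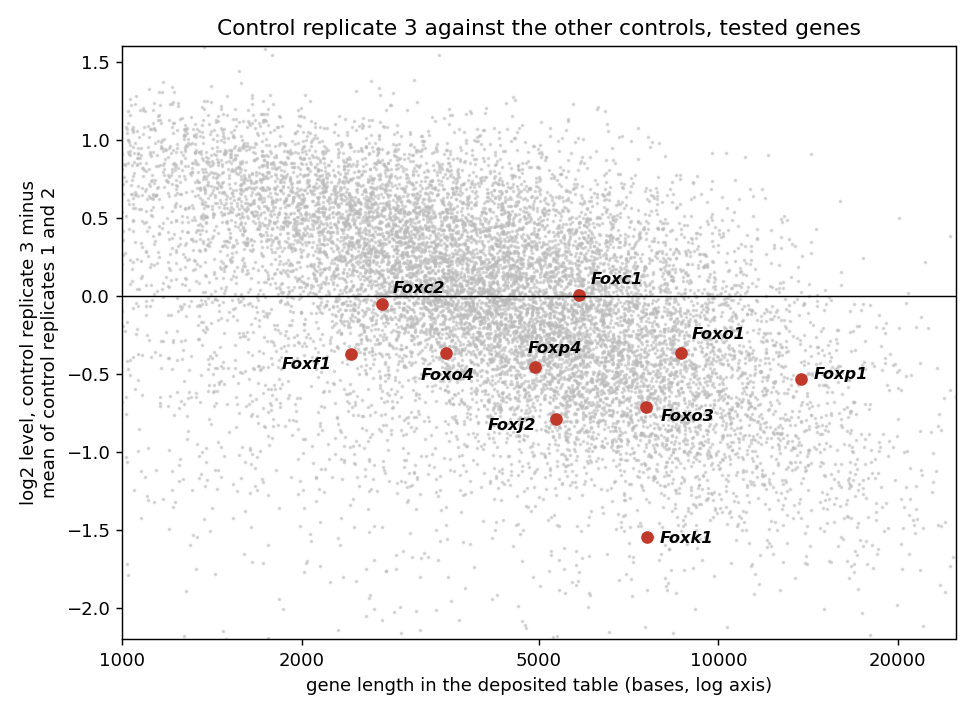
Difference in log2 level between control replicate 3 and the mean of control replicates 1 and 2 (vertical axis) against gene length in bases (log axis) for tested genes (grey) and the 10 forkhead genes (red). Genes outside the axes are not drawn. Foxk1 lies lowest of the members at -1.55, and Foxc1 and Foxc2 lie near 0.

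Levels of different genes were compared in TPM. Foxf1 was the highest member, with 203 to 206 TPM with RBPMS and 211, 218 and 125 TPM in control replicates 1 to 3. Foxp1 followed with 88.2 to 97.6 TPM with RBPMS and 103, 96.9 and 52.0 TPM in controls, and Foxc1 was lowest with 13.5 to 14.7 TPM with RBPMS and 15.1, 16.1 and 11.8 TPM in controls. The order by the mean over the 6 libraries was Foxf1 (195 TPM), Foxp1 (88.6), Foxo3 (44.8), Foxc2 (42.5), Foxk1 (39.2), Foxp4 (32.7), Foxo4 (32.4), Foxj2 (30.7), Foxo1 (30.1) and Foxc1 (14.3 TPM). Of the 9 neighbouring pairs in this order, 2 had ranges over the 6 libraries that did not overlap, Foxf1 over Foxp1 and Foxo1 over Foxc1. Without control replicate 3 the ranges of Foxp1 and Foxo3 and of Foxk1 and Foxp4 also did not overlap, and Foxc2 lay above Foxk1 in only 1 of those 5 libraries. Among Foxp4, Foxo4, Foxj2 and Foxo1 the ranges of neighbours overlapped with and without that library.

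**Figure D4:**
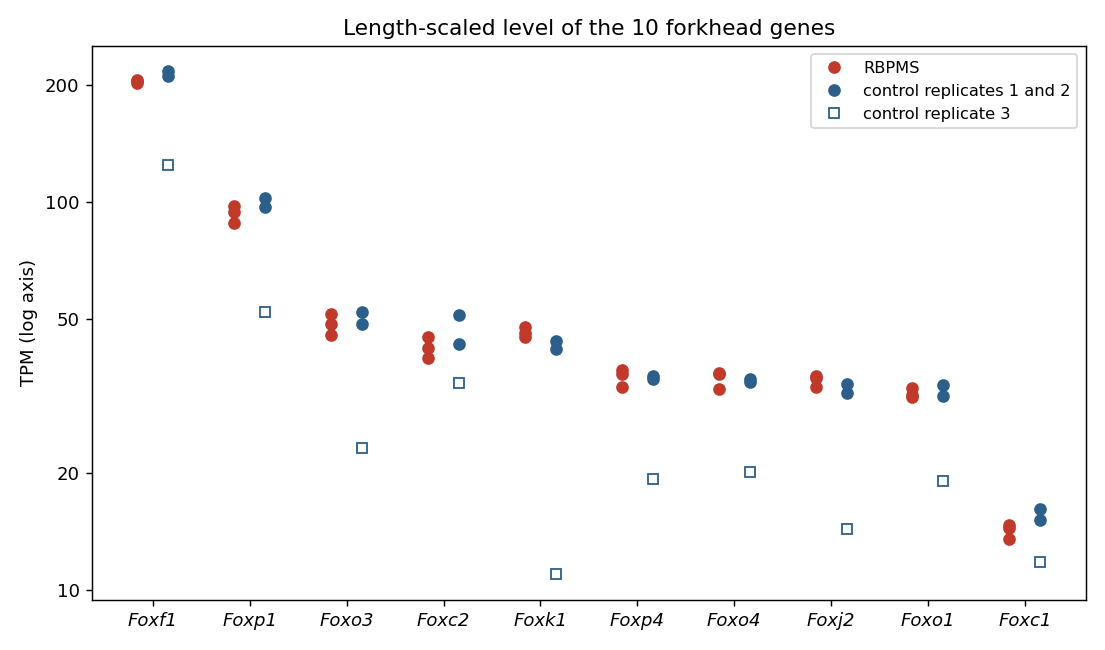
TPM of each forkhead gene in every library on a log axis, ordered by the mean over the 6 libraries, with RBPMS points left of control points. Foxf1 averages 195 TPM and Foxc1 14.3 TPM, and the open square of control replicate 3 lies lowest for each gene.

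Gene length bears on this order. The deposited lengths equal the union of annotated exons for all 10 members, and Foxp1 has 31 annotated transcripts and a union of 13751 bases, whereas its longest coding transcript has 7177. With that transcript's length its mean level was 170 TPM, still below Foxf1. The same change shortened Foxp4 from 4926 to 3999 bases, and Foxk1 only from 7584 to 7439. With those lengths the mean of Foxp4 over the 6 libraries lay above that of Foxk1. That order rests on control replicate 3, with 10.9 TPM for Foxk1 and 19.3 for Foxp4 on the deposited lengths. Without that library the mean of Foxk1 stayed the higher one, and their ranges overlapped. The exons of Foxo1, Foxf1, Foxp1 and Foxj2 overlap those of other annotated genes, and each of those genes had at most 2 counts in any library.

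Among the other forkhead genes (34 in all), 14 had no count in any library, 12 had at most 6 counts in a library and were not tested, and 8 were tested. The highest was Foxk2, the paralog of Foxk1, at a mean of 70.5 TPM, with 117, 118 and 117 CPM with RBPMS and 111, 122 and 79.7 CPM in controls (log2 fold change 0.012 ± 0.051 without control replicate 3). Foxm1, which drives genes of mitosis, was the one forkhead gene of these 8 that fell in the 5 libraries (a log2 difference of -0.28 ± 0.073, adjusted p = 0.0214, edgeR). In that fit 7.24% of all 14123 tested genes were called, 3.43% of them all as lower with RBPMS. Foxm1 had 39.4, 42.5 and 42.6 CPM with RBPMS, against 53.0, 47.8 and 24.98 CPM in controls. With control replicate 3, the lowest library, its log2 fold change was -0.012 and the groups overlapped. Foxn2 had a log2 fold change of 0.13 ± 0.071 without control replicate 3 (adjusted p = 0.335).

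The gene lists that follow were chosen with earlier results known, and their counts stand against the 7.24% of all tested genes called in the 5 libraries (3.81% higher, 3.43% lower) and the 7.56% at an unadjusted p under 0.05 in all 6. Of 29 tested genes of insulin and growth factor signalling, AKT, 14-3-3 proteins and FOXO cofactors, 1 rose and 0 fell without control replicate 3, and their median log2 fold change was 0.0067. It was Mdm2, a ubiquitin ligase best known for p53, with 135, 145 and 139 CPM with RBPMS, against 116, 106 and 97.8 CPM in controls (0.33 ± 0.051, adjusted p = 3.5e-04, edgeR). The 14-3-3 genes Ywhaz and Ywhab had log2 fold changes of 0.033 and 0.00040 and did not pass. In the 6-library edgeR fit 0 of the 29 passed, with 2 at an unadjusted p under 0.05.

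Among 21 tested genes described as FOXO targets in one tissue or another, 2 rose and 1 fell without control replicate 3, with a median log2 fold change of 0.074. Cdkn1a, which encodes the cell cycle inhibitor p21, rose with 318, 331 and 299 CPM with RBPMS, against 256, 256 and 246 CPM in controls (0.30 ± 0.049), and the proapoptotic Bbc3 rose too (0.37 ± 0.087). Both are also described as p53 targets, and which factor acted on any gene of this list was not tested. Cdkn1b, which encodes the inhibitor p27, fell (-0.25 ± 0.050, adjusted p = 2.7e-03, edgeR). It had 88.2, 85.7 and 87.8 CPM with RBPMS, against 105, 103 and 96.1 CPM in controls. The groups did not overlap for these 3 genes with all 6 libraries, as for 24.7% of all genes tested, and 0 of the 21 passed in edgeR and 4 had an unadjusted p under 0.05. The abundant Txnip (-0.062 ± 0.047) and Klf2 (0.090 ± 0.052) did not pass.

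Of 7 tested vessel genes linked to FOXC factors, the lymphatic receptor gene Flt4 (0.31 ± 0.049) and the connexin gene Gja4 (0.91 ± 0.14) rose and the integrin gene Itgb3 fell (-0.34 ± 0.048) without control replicate 3, with a median log2 fold change of 0.10. Itgb3 had 896, 843 and 907 CPM with RBPMS, against 1101, 1138 and 748 CPM in controls, so that control replicate 3 lay below the RBPMS libraries. Gja4 had 34.4, 46.3 and 28.5 CPM with RBPMS, against 18.5, 20.5 and 29.2 CPM in controls, where control replicate 3 lay inside the RBPMS range. The Notch ligand gene Dll4 had a log2 fold change of 0.10 ± 0.051 and the lymphatic valve factor gene Nfatc1 one of 0.092 ± 0.065. Of 9 genes linked to FOXF1, 2 fell without control replicate 3, the growth factor receptor genes Kdr and Flt1 (-0.21 ± 0.049 and -0.22 ± 0.045), and the median was -0.043. Kdr had 2449, 2271 and 2357 CPM with RBPMS, against 2687, 2765 and 1692 CPM in controls, so the groups overlapped through control replicate 3. The junction genes Cdh5 (0.13 ± 0.046) and Pecam1 (0.098 ± 0.048) did not pass. Over all 6 libraries 0 of these genes passed in edgeR (1 of the FOXC list and 0 of the FOXF1 list at an unadjusted p under 0.05), and the log2 fold changes of Kdr and Flt1 were -0.014 and 0.017.

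In the list linked to FOXP factors and their corepressors 0 of 9 tested genes passed in edgeR without control replicate 3 (1 at an unadjusted p under 0.05, Nlrp3), with a median log2 fold change of -0.070, Tgfb1 at 0.050 ± 0.050 and Ctbp1 at -0.093 ± 0.049. Among 14 genes linked to FOXK factors 1 rose and 1 fell, with a median of 0.028. Pdk1, a kinase that shuts pyruvate out of the mitochondrial pathway, had 125, 122 and 122 CPM with RBPMS, against 107, 107 and 111 CPM in controls (0.20 ± 0.048, adjusted p = 0.0129, edgeR). Pkm, a pyruvate kinase gene of glycolysis, had 928, 928 and 952 CPM with RBPMS, against 1047, 1034 and 1237 CPM in controls (-0.15 ± 0.045, adjusted p = 0.0431, edgeR). The groups did not overlap for either gene over all 6 libraries, as for 24.7% of all genes tested. Ldha (-0.14 ± 0.045) and Hk1 (0.14 ± 0.046) did not pass. Over all 6 libraries 0 of the genes in these lists passed in edgeR, and 0 had an unadjusted p under 0.05.

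RBPMS protein is known to bind RNA at paired CAC trinucleotides, and the transcripts of the members differed in how many they hold. A CAC followed after 1 to 12 bases by another CAC was counted on the sense strand of the longest coding transcript of each gene in GENCODE M21. Over 11744 tested genes the median was 2.96 pairs per kb, with a middle range of 1.87 to 4.35, and over the members it was 3.94. Foxk1 had 74 pairs in 7439 bases (9.95 per kb, at percentile 98.6 of the tested genes) and Foxj2 had 41 in 5283 bases (7.76 per kb, percentile 96.4), whereas Foxo1 had 18 in 8665 bases (2.08 per kb) and Foxc1 9 in 5844 bases (1.54 per kb). In Foxk1 53 of the pairs lay in the 3′ untranslated region, and in Foxj2 28 lay in the coding sequence. These 4 transcripts had the most and the fewest pairs per kb among the members. The first 30-base stretch with the most CAC in each is shown, with CAC in capitals.
Foxk1: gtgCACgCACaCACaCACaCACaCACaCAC
Foxj2: agcagcCACCACCACagcCACagcCACCAC
Foxo1: gcgtgCACccagcgccgcCACagccccCAC
Foxc1: caggaggccagcCACCACcctgcatccCAC
These stretches lie at chr5:142460778-142460807 (plus strand, 3′ untranslated), chr6:122837890-122837919 (plus strand, coding), chr3:52269133-52269162 (plus strand, coding) and chr13:31808576-31808605 (plus strand, coding) in GRCm38. The one in Foxk1 is a CA repeat. Overlapping pairs were each counted, so this repeat raises the count and percentile of Foxk1, and its share was not measured. The order by pairs per kb was not that of the fold changes: after Foxk1 and Foxj2, whose RBPMS libraries lay above the controls, came Foxp1 (38 pairs, 5.29 per kb), whose RBPMS libraries lay below control replicates 1 and 2. Foxc2, with the lowest fold change in the 5 libraries, had 12 pairs (4.40 per kb, percentile 75.8). Foxk1 and Foxj2 also had the lowest levels in control replicate 3 relative to the other controls. A match is a description of the sequence and not a measured binding site, and no p is given.

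**Figure D5:**
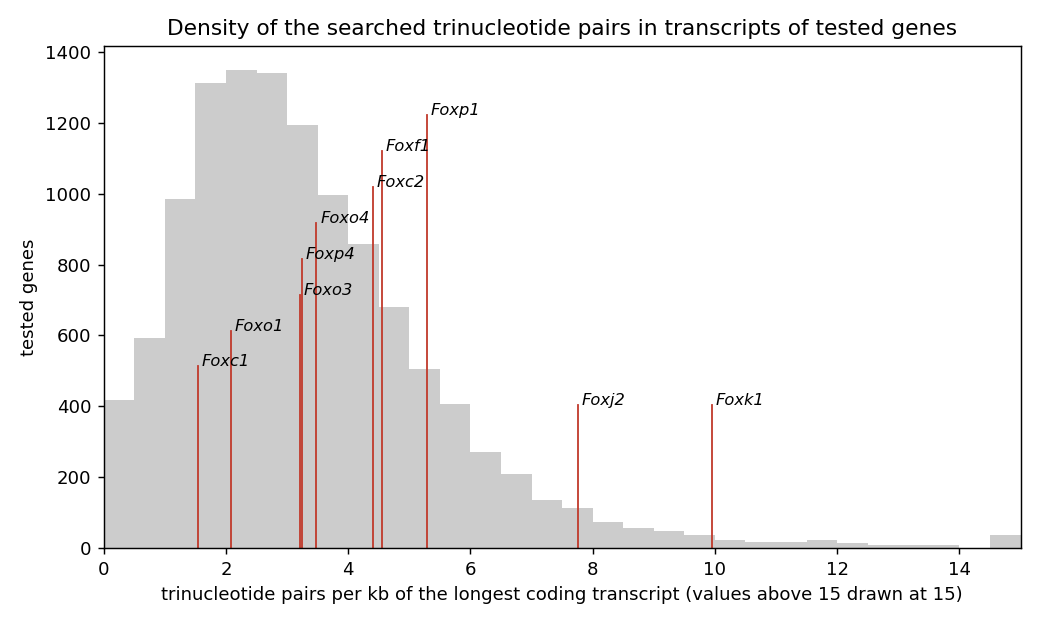
Histogram of trinucleotide pairs per kb in the longest coding transcript of 11744 tested genes (grey), with a red line at each forkhead gene whose height only spaces the names. Foxk1 stands at 9.95 and Foxj2 at 7.76 per kb, above the other members.

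Promoter windows of RefSeq (GRCm38.p6, 250 bases before to 50 after a start) were matched for 6 of the 10 genes, in 8 windows. They held 48.7% to 78.3% G or C (median 68.8%), against a median of 60.7% over 12486 windows of tested genes, and a median of 32.5 CpG dinucleotides against 20. The forkhead core TGTTTAC occurred on either strand in 0 of the 8 windows, in 2.52% of the windows of tested genes and in 3.65% of all 32851 windows. TATAAA occurred in 0 of the 8, in 7.0% of the windows of tested genes and in 13.6% of all. The variant TGTTTGC occurred in 1 of the 8, in 3.52% of the windows of tested genes and in 5.07% of all, and these motifs do not share a match since they differ in 1 letter. That window is the upstream one of 3 at Foxp1, at chr6:99520944-99521243 on the minus strand, shown with the match in capitals as the only one among the members.
Foxp1: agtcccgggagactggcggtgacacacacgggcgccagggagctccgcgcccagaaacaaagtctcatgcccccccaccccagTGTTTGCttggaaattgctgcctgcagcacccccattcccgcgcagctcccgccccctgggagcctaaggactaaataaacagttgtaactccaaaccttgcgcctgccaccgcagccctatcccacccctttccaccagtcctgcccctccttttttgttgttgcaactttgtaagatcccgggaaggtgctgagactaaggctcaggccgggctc

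For Foxf1 and Foxo1, the genes most alike across the 6 libraries were found by Pearson's r of log2 CPM among 11680 genes. The genes most like Foxf1, the highest member in TPM, were Slc4a8 (r = 0.998), Sorcs2 (0.997) and Poldip3 (0.997), and for Foxo1 they were Myo18a (0.999), Nvl (0.999) and Ints1 (0.999). Control replicate 3 was the lowest library for both members. Without it, r was 0.974 to 0.984 for the genes picked for Foxf1 and 0.961 to 0.962 for those picked for Foxo1, over 5 libraries that had also served to pick them. Between Foxo1 and Foxf1 themselves r was 0.937 over 6 libraries and -0.0038 without control replicate 3. These values are a description only.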

How the data were processed

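The labels' protocols name Trizol extraction, a ribosomal RNA removal kit and an NEB library kit. The deposited values are whole-number counts per gene beside gene lengths, and TPM was computed here from both. FastQC, Salmon and mm10 appear in the submitters' processing notes. These sources do not state how whole numbers were reached or whether strand was used. Coordinates of all 10 members equal those of GENCODE M21 (GRCm38).

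Counts were tested with edgeR 4.0.16 in R 4.3.3 (quasi-likelihood with a term for group, filterByExpr, TMM, adjusted p by Benjamini-Hochberg over all tested genes, threshold 0.05), over all 6 libraries and without control replicate 3. Standard errors are the fold change over the square root of F, and intervals use the fit's degrees of freedom. Marker sums are CPM of total counts. The difference of control replicate 3 used log2 of CPM plus 0.5. Alternatives were DESeq2 1.42.0, limma 3.58.1 voom, other scalings and filters, a loess length trend (span 0.3), a replicate block and leaving out each library. The members, the gene lists and the choice of control replicate 3 were made with earlier results of these data known. Named genes are all members, and from each list up to 6 called genes by p and up to 2 abundant uncalled ones, with called and the 3 most abundant other forkhead genes; Nlrp3, Foxo6, Foxp2, Foxl1, Foxf2, Foxq1 and Fendrr fall outside this rule and were named after their values were seen. Chi-square per degree of freedom between replicates was 3.19 or more, so no library copied another. The r without control replicate 3 was added after seeing the data. The test was tried on simulated counts.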

Additional observations from a re-analysis of the deposited data

How the results depend on the processing

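None of the 10 members passed the adjusted p threshold under any setting run, for all 6 libraries or without control replicate 3. Adjusted p-values of members ran from 0.112 (Foxc2, 5 libraries) to 0.999 over these settings. With all 6 libraries the number of genes called was 0 with edgeR as reported, 5 with no filter on low counts, 56 with DESeq2, 3 with the length trend removed, and 0 to 1022 when 1 library was left out, the highest without control replicate 3. Without control replicate 3 it was 1022, and 415 to 1017 when 1 more library was left out (415 and 627 when control replicate 1 or 2 was dropped, 616 when RBPMS replicate 1 was), so that count rests on single libraries. A fit that leaves 1 control assumes that it varies like the other libraries. The sign of small fold changes turned in 10 cases. Over all 6 libraries, removing the length trend gave -0.060 for Foxo1 and -0.19 for Foxp1 on the log2 scale, and leaving out single libraries gave -0.015 to 0.17 for Foxo1, -0.045 to 0.28 for Foxo3, -0.055 to 0.15 for Foxf1 and -0.084 to 0.16 for Foxp1, the negative values without control replicate 3. In the 5 libraries, leaving out 1 more gave -0.031 to 0.0012 for Foxo1, -0.30 to 0.013 for Foxc2 and -0.0088 to 0.070 for Foxp4. Same-numbered libraries of the groups did not deviate together (r of -0.03 to 0.05). Control replicate 3 weighs heavily on the deviations within its group, so this check could hardly show pairing and does not decide it. The numbers were not taken as pairs. With the replicate block 0 genes were called over all 6 libraries, 917 without control replicate 3, and 0 members in either. The cause of these shifts was not tested.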
